A study of Mus musculus with 2 samples.

Results

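The Pbx, Meis and Pknox genes encode homeodomain proteins of the TALE class. Their loci were read out in a single list of Isl1 ChIP-seq peaks from the early mouse embryo. Isl1 is a LIM-homeodomain transcription factor that marks cardiac progenitors. Chromatin came from the cardiogenic mesoderm and heart region of C57BL/6 embryos at E8.25 to E9, with 60 to 80 embryos pooled, and was precipitated with a monoclonal antibody against Isl1. The matching input took no antibody, and its signal track is not used here. The members were the 8 genes Pbx2, Pbx3, Pbx4, Meis1, Meis2, Meis3, Pknox1 and Pknox2, and a peak counted as theirs where the deposited list named that gene as having the closest transcription start site (TSS). This gave 31 of the 48295 peaks of the list, in 7 of the 8 genes, out of 12972 genes named in it.

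TALE proteins carry extra residues between the first and the second helix of the homeodomain. Pbx proteins bind DNA together with Hox proteins and with Meis or Pknox (Prep) proteins, and Meis and Pknox proteins help to keep Pbx proteins in the nucleus. In the developing heart, Pbx and Meis factors are known for their part in outflow tract formation. The list answers where Isl1 peaks were called closest to these genes. It holds a position and a distance for each peak but no height, p-value or read number, so depth is unknown and no peak can be ranked by strength. With 1 list there was no replicate check, and no test between groups could be made.

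The peaks closest to the TSS differed in sequence between these genes. That sequence is shown for 5 of the genes with a peak, from the mm9 genome, 5′ to 3′ on the strand of the gene. The peaks of Pbx3 and Pknox1 are shown as the 200 bases around the midpoint with each CG in capitals, at chr2:34227614-34227813 (minus strand) and chr17:31702057-31702256 (plus strand). The peaks of the Meis genes are shown as their longest unbroken run of purines or of pyrimidines, in capitals, with 20 bases to either side. These lie at chr2:115893300-115893420 (minus) for Meis2, chr7:16759669-16759774 (plus) for Meis3 and chr11:18898952-18899050 (minus) for Meis1.
Pbx3: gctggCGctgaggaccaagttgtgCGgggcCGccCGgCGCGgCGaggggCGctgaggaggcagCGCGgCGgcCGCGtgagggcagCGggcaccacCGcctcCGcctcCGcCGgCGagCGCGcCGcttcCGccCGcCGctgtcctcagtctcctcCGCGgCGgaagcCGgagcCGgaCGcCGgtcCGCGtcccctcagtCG
Pknox1: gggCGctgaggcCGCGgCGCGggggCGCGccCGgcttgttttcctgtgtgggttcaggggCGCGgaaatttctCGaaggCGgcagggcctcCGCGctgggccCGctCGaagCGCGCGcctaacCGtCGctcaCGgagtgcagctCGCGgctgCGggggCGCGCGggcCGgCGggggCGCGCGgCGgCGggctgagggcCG
Meis2: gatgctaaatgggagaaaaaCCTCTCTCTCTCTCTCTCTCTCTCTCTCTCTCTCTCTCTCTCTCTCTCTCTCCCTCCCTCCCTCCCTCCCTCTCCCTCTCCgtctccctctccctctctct
Meis3: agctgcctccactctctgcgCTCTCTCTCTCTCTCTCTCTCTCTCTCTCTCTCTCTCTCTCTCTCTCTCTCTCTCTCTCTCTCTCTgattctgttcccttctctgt
Meis1: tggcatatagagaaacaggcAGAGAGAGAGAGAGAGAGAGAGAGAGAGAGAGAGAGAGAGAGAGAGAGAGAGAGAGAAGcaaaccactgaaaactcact
The first 2 of these sequences held 35 and 36 CG dinucleotides in 200 bases. The other 3 were built around tandem repeats of GA, read as CT on the other strand. The closest peak of Pbx4 lay over an untranslated region of the neighbouring gene Lpar2, which encodes a lysophosphatidic acid receptor, and is described without its sequence.

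Peaks were unevenly spread over the family. Meis1 had 16 peaks, Meis3 had 5, Pbx3 had 4 and Meis2 had 3, while Pbx4, Pknox1 and Pknox2 had 1 each and Pbx2 had none. In the whole list, the median gene had 2 peaks and 5157 genes (39.8%) had 1, so the loci with 1 peak were of the most frequent kind. At the other end, 391 genes had more peaks than Meis1, and 2305 and 2908 had more than Meis3 and Pbx3. As a background, 45.5% of the protein-coding genes of the GENCODE annotation were named with at least 1 peak, matched by symbol. A count of peaks also follows from how far away the next TSS lies, which is taken up for each gene further on.

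**Figure D1:**
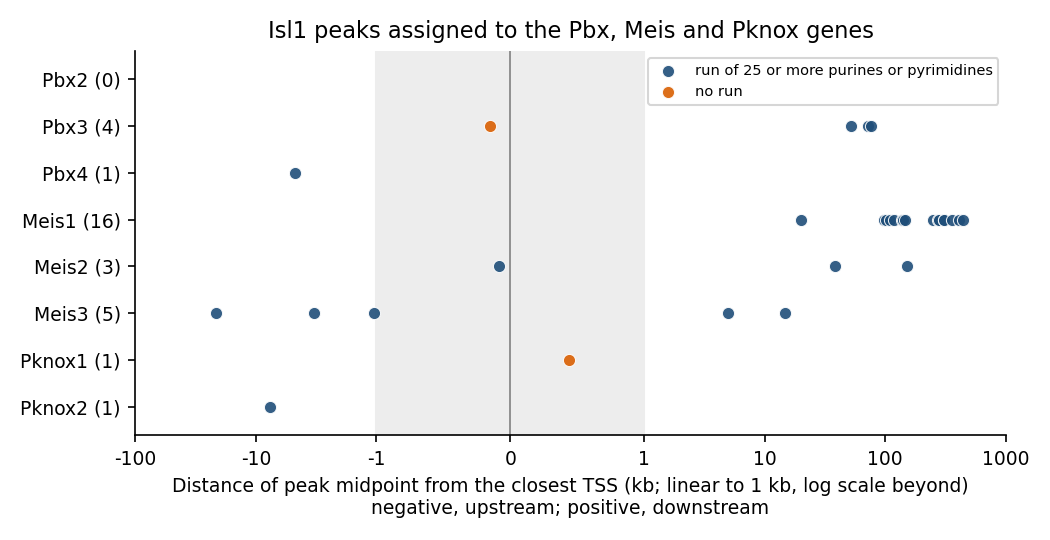
Signed distance of each member peak from the closest TSS in kb, linear up to 1 kb (grey band) and on a log scale beyond, with 1 line per gene and its number of peaks in brackets. Blue points are peaks whose central 200 bases hold 25 or more purines, or pyrimidines, in a row and orange points are those without; the orange points are the peaks of Pbx3 at -0.148 kb and Pknox1 at 0.438 kb.

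Among the Pbx genes, which encode the partners of Hox proteins, a peak at the promoter was present in Pbx3 alone. This peak covered chr2:34227406-34228020, was 614 bp wide and was centred 0.148 kb upstream of the TSS used in the list, reaching into the first exon. GENCODE begins the gene farther upstream, at chr2:34228660, so by that annotation the whole peak lay inside Pbx3. The peak was among the wider ones of the list, at the 81.2 percentile of all widths. The other 3 peaks of Pbx3 lay in its introns, 52.1, 71.4 and 76.2 kb downstream of the TSS, with widths of 464, 693 and 563 bp. The 2 farther ones also lay within C79798, a second gene annotated over the same intron. The Pbx4 peak, at chr8:72351580-72352151, was 571 bp wide and 4.74 kb upstream of its TSS, in an exon of Lpar2. Pbx2 had no assigned peak, and the nearest in the list lay 11.7 kb upstream of its TSS and was given to Gpsm3, a regulator of G-protein signalling. The next nearest was already 112.4 kb away.

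The 3 Meis genes, which encode the partners that enter complexes with Pbx proteins, differed in where their peaks lay. The peak of Meis2 closest to its TSS, at chr2:115893005-115893526, was 521 bp wide and 0.085 kb upstream of the RefSeq TSS used in the list. It overlapped exons of 2 non-coding transcripts, 2700033N17Rik and G630016G05Rik, and the nearest coding TSS of Meis2 in the GENCODE annotation was 1690 bp away, so its place within 1 kb depends on the annotation. The other peaks of Meis2 were intronic, 38.5 and 150.5 kb downstream. Meis3 carried a compact group: 3 peaks 21.2, 3.28 and 1.045 kb upstream and 2 peaks 4.96 and 14.9 kb downstream. The upstream peak farthest away lay in an intron of Slc8a2, which encodes a sodium/calcium exchanger. The peak at 1.045 kb fell just outside the limit of 1 kb that the closest peaks of Pbx3, Meis2 and Pknox1 passed.

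Meis1 had the opposite layout, with no peak near its start. All 16 of its peaks were downstream, from 20.0 to 439.4 kb from the TSS, with a median of 198.3 kb. Inside the gene lay 6 of them, including 1 over the terminal part with its 3′ untranslated region, and 10 lay beyond its end, by 1.03 to 300.9 kb. The spacing between neighbouring midpoints had a median of 19.3 kb and ran from 0.934 to 102.9 kb, so that the peaks spanned 419.4 kb. Of those beyond the end, several fell in the non-coding transcripts 8430419K02Rik and Gm12023.

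The Pknox genes, whose products take the place of Meis proteins in complexes with Pbx, had 1 peak each. The Pknox1 peak, at chr17:31701935-31702377, was 442 bp wide and 0.438 kb downstream of the TSS, within the gene and over a predicted miRNA gene (AC166172.1). The Pknox2 peak was 573 bp wide and lay 7.67 kb upstream in intergenic sequence.

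Counted over the family, 3 of the 7 genes with a peak (Pbx3, Meis2 and Pknox1) were bound at 1 kb or less from the TSS and 6 of 7 at 10 kb or less, against 9.37% and 48.3% of the genes named in the list, each of which also has a peak. Of the peaks, 3 of 31 (9.68%, 95% Clopper-Pearson interval 2.04 to 25.8%) were within 1 kb, against 2.58% of all peaks. With 3 peaks the interval reached down below the background. Downstream of the TSS lay 24 of the 31 peaks (77.4%, interval 58.9 to 90.4%), against 52.5% of all peaks. Meis1 set this excess: without its peaks 8 lay downstream and 7 upstream. It also set the median distance, which was 97.5 kb (interval of the median 20.0 to 146.8 kb) over all 31 peaks and 7.67 kb over the 15 peaks of the other genes, beside 58.8 kb over the whole list. Peaks of the same gene share a locus and come from the same library, so these intervals cover counting error only and the peaks are not replicates.

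Widths did not separate the family from the list. The median was 482 bp (interval 363 to 552 bp) against 466 bp for all peaks, and the member peaks ranged from 310 to 712 bp. Both extremes belonged to Meis1. Within genes, the Pbx3 peaks had a median of 588.5 bp and the Meis3 peaks 343 bp. In position, 14 peaks were intronic, 10 intergenic and 7 overlapped an exon, of which 2 were exons of the member itself (Pbx3 and Meis1) and 5 exons of other, mostly non-coding, transcripts. Positions were not counted over the whole list, so these numbers describe the members only.

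Sequence separated 2 of the peaks from the rest. A run of at least 25 consecutive purines or pyrimidines was present in the central 200 bases of 29 of the 31 peaks (93.5%, interval 78.6 to 99.2%), near the 94.1% of all peaks. The 2 peaks without such a run were the promoter peaks of Pbx3 and Pknox1, whose sequences are given above. Over whole peaks the share was 96.8%, because the Pbx3 peak held a run of 38 bases outside its central 200 bases. Only the Pknox1 peak then lacked a run. In equally long windows 1 kb upstream and downstream of the midpoints, 2 of 62 held a run, against 3.93% for the list, and these belonged to the Meis1 peaks 0.934 kb apart, whose flanking windows fell on each other. The longest run in a peak was 299 bases, in Meis1 308.6 kb from the TSS, and the median over the 29 peaks with a run was 91 bases against 114 for all such peaks of the list.

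The promoter peaks of Pbx3 and Pknox1 resembled each other and stood apart from every other member peak in base composition. Their GC contents were 81.6 and 81.3%, with 107 and 73 CG dinucleotides, and the ratio of observed to expected CG was 1.06 in both. The next highest GC content among the members was 56.8%, in the Meis3 peak 3.28 kb upstream. Meis2 differed from them although its peak was even closer to the annotated start: GC content was 55.6%, the CG ratio was 0.322, and the peak held a pyrimidine run of 81 bases on the strand of the gene. Promoter peaks of the whole list fell apart in the same way. Within 1 kb of a TSS, 631 peaks had a run and a median GC content of 48.1%, and 614 had none and a median of 80.0%, with CG ratios of 0.166 and 1.01. The Pbx3 and Pknox1 peaks thus lay near the median of the second kind and Meis2 nearer to the first. Beyond 1 kb, 28 of 28 member peaks held a run, against 95.2% of such peaks in the list.

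**Figure D2:**
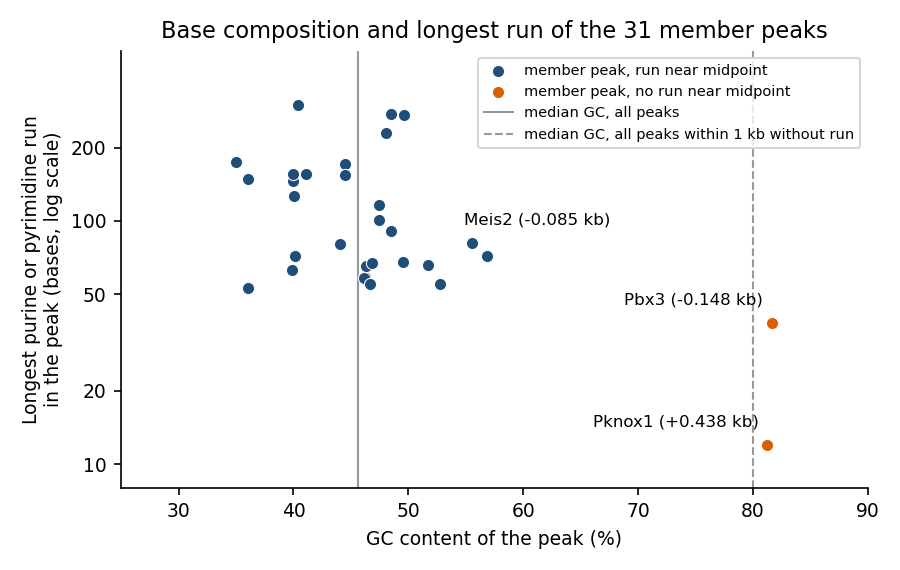
GC content of each member peak in % against the longest purine or pyrimidine run in it in bases (log scale); vertical lines mark the median GC content of all peaks (45.6%) and of all peaks within 1 kb of a TSS that hold no run (80.0%). The peaks of Pbx3 and Pknox1 lie at 81.6 and 81.3% GC with longest runs of 38 and 12 bases, apart from the other 29 peaks.

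The runs differed in their repeat unit between genes. In 18 of the 29 peaks with a run, the longest perfect tandem repeat was of GA, with 14 to 49 copies, and all 18 belonged to Meis genes. Meis genes held 24 of the 29 runs, so few runs stood for the other genes. Repeat units were not counted over the whole list. The Meis3 run shown above consisted wholly of 33 copies and the Meis1 run of 28 copies over 94.9% of its length. In the other 11 peaks the unit had 3 to 6 bases. These included all 3 intronic peaks of Pbx3 (GGGA, GAAAG and GAG), the Pbx4 peak (GAGG, 13 copies) and the Pknox2 peak, besides 6 peaks of Meis genes. Content of G on the purine strand reached 74.5% in Pbx4 and in the Pbx3 peak 52.1 kb downstream. A repeat of GA or CT over 4 or more units stood within 100 bp of the midpoint in 22 of 31 peaks (71.0%, interval 52.0 to 85.8%), against 56.1% of all peaks. In Meis1 it was 15 of 16, and in the other genes 7 of 15. On the strand of the gene, 11 of the 29 runs were purine and 18 pyrimidine.

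Binding motifs of the factors concerned were searched on both strands in the 200 bases around the midpoint and over the whole peak. TAAT, the core read by Isl1 and many other homeodomains, was present in the central 200 bases of 13 of 31 peaks (41.9%, interval 24.5 to 60.9%), against 35.3% of all peaks. In windows of the same length 1 kb away it was more frequent, at 74.2% for the members and 73.4% for the list. An unbroken run of purines or of pyrimidines cannot hold TAAT. Such runs were in 29 of the 31 central windows and in 2 of the 62 flanking ones, so the windows were unlike. Among peaks of the list without a run, the shares with TAAT were 37.4% centrally and 66.6% in the flanking windows. What sets this contrast was not tested. TGACAG, the core of Meis and Pknox proteins, was found centrally in 1 peak, the Meis1 peak 20.0 kb downstream (3.23%, against 4.65% of all peaks). Over whole peaks it was found in 5 (16.1%, against 17.8%), among them the promoter peaks of Meis2 and Pknox1. TGATTGAC, read by Pbx with Meis or Pknox, was found in 0 of 31 whole peaks (interval 0 to 11.2%, against 0.739%). TGATNNAT, read by Pbx with Hox, was found centrally in 1 peak, the Meis3 peak 14.9 kb downstream, and in 4 whole peaks (12.9%, against 16.2%). It can overlap TAAT and TGATTGAC in part. The promoter peak of Pbx3 held none of the 4 motifs over its whole width.

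Assignment to the closest TSS decided which peaks counted for a member, and this differed most for Pknox2, Meis1 and Meis2. The transcribed part of Pknox2 is 256.3 kb long and held 4 peaks, 153.3 to 220.3 kb from its TSS, 3 of them with a run. All 4 were given to Fez1, a gene for a protein of axon growth whose TSS lies beyond the 3′ end of Pknox2, so the list shows Pknox2 with its upstream peak only. Of the other members, the transcribed part held 6 peaks in Meis1, 4 in Pbx3, 2 in Meis2 and 1 each in Meis3 and Pknox1, all given to the member itself, and none in Pbx2 or Pbx4. Upstream of Meis1, 10 peaks between 26.9 and 419.0 kb from its TSS were given to 4933406G16Rik, and 9 of these held a run. Upstream of Meis2, 7 peaks between 76.0 and 348.4 kb were given to 2810405F15Rik, all with a run. A pair of peaks 247.4 and 283.6 kb downstream of the TSS of Pbx3 went to C230014O12Rik in the same way. GENCODE lists 4933406G16Rik and C230014O12Rik as non-coding transcripts, and the name 2810405F15Rik did not match a GENCODE gene. The downstream-only layout of Meis1 therefore holds for the list's assignment and not for the peaks around the gene.

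**Figure D3:**
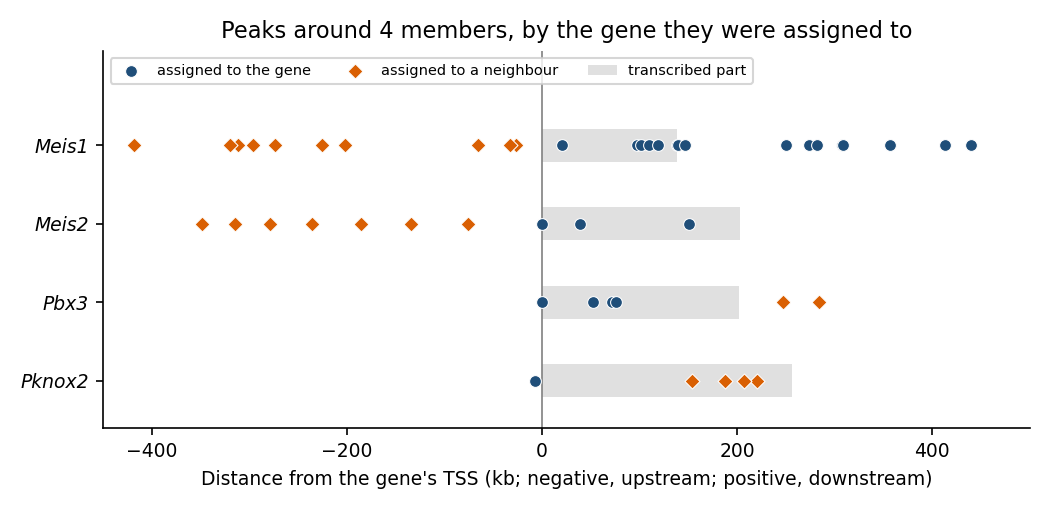
Peaks around 4 members by distance from the TSS of the gene in kb, blue where the list assigned them to the member and orange where it assigned them to a neighbour; grey bars are the transcribed part. Orange peaks fill the upstream side of Meis1 (10) and Meis2 (7) and the transcribed part of Pknox2 (4).

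When each peak was given instead to the closest coding TSS of GENCODE, the family had 34 peaks: 10 each for Meis1 and Meis2, 6 for Pbx3, 5 for Meis3, 1 each for Pbx4, Pknox1 and Pknox2, and 0 for Pbx2. For Meis1, all of the 10 were those upstream, because its own 16 went to Gm16140, a putative coding gene that GENCODE places inside Meis1 at chr11:18909131-18911186. With Gm16140 left out, an alternative added after the values were seen, Meis1 had 28 peaks, 18 of them downstream and 10 upstream (64.3% downstream), and the family had 52.

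The stretch of genome nearer to a gene's coding TSS than to any other differed widely within the family. It was 4.88 kb for Pbx2 and 744.9 kb for Meis2, beside a median of 46.6 kb over all coding genes. Pooled, the 8 stretches held 18.3 peaks per Mb (21.8 with Gm16140 left out) against 18.7 for all coding genes pooled. Meis1 stood at 21.7 peaks per Mb (28.3 with Gm16140 left out), Pbx3 at 17.7, Meis2 at 13.4, Pknox1 at 17.2 and Pknox2 at 5.92, near or below that level except for Meis1 without Gm16140. The Pbx4 value of 30.7 rested on 1 peak. Meis3 stood apart with 5 peaks in 45.8 kb, or 109.1 per Mb, which was above 99.1% of coding genes. Pbx2 had 0 peaks in its stretch of 4.88 kb, the shortest of the 8. Whether the length of the stretch accounts for this was not tested.

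**Figure D4:**
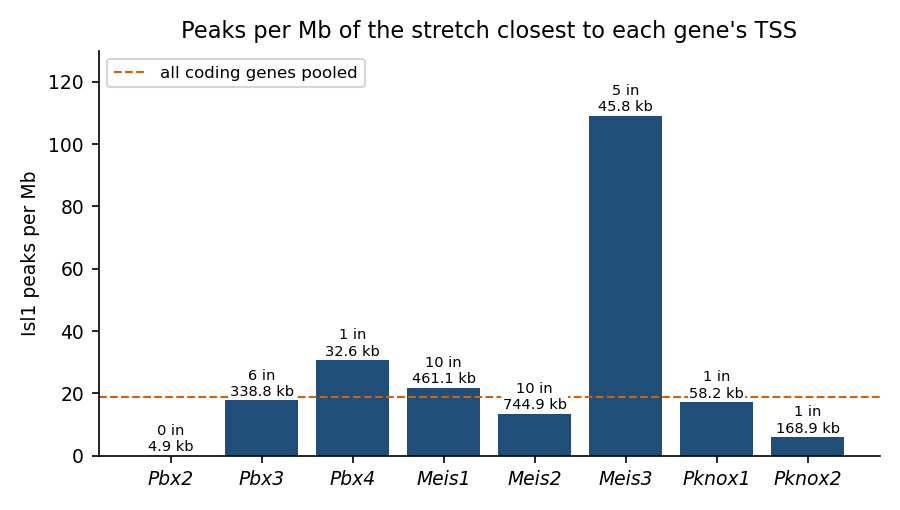
Isl1 peaks per Mb of the stretch closer to the coding TSS of each member than to any other GENCODE coding TSS, with the number of peaks and the length of the stretch over each bar; the dashed line is the rate of all coding genes pooled (18.7 per Mb). Meis3 is at 109.1 per Mb, and the Meis1 bar counts the 10 upstream peaks that remain when Gm16140 takes the others.

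Runs of at least 50 purines or pyrimidines were counted in the same stretches, whether or not a peak lay there. They were densest at Meis3, with 11 runs or 240.1 per Mb, against 78.2 per Mb in the 8 stretches pooled and 68.6 per Mb for all coding genes. Over Meis3, 5 of the 11 runs were under a peak (45.5%, interval 16.7 to 76.6%). Meis1 had 10 of 27 under a peak (37.0%, interval 19.4 to 57.6%), Meis2 11 of 61 (18.0%, interval 9.36 to 30.0%) and Pbx3 5 of 25 (20.0%, interval 6.83 to 40.7%). The intervals of these 4 genes overlap. Pooled, 34 of 145 runs were under a peak (23.4%, interval 16.8 to 31.2%), against 30.6% of such runs in the genome. The Meis1 and pooled counts use the stretch of Meis1 as cut by Gm16140. With Gm16140 left out, Meis1 had 30 of 72 runs under a peak (41.7%), so the pooled share depends on this annotation. Pbx2 had no such run in its stretch, and the 2 of Pknox1 had no peak over them.

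**Figure D5:**
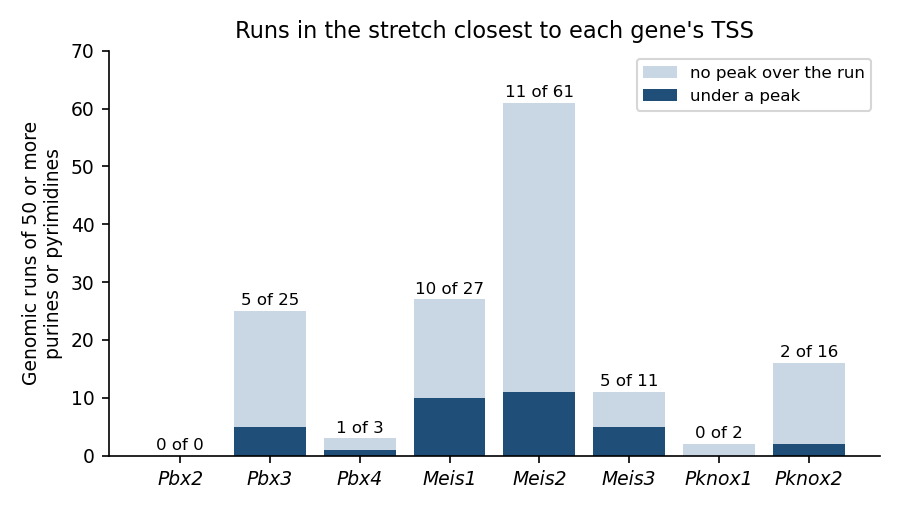
Number of genomic runs of 50 or more purines or pyrimidines in the stretch closest to the TSS of each member, with those under an Isl1 peak in dark blue. Meis2 had the most runs (61) and Meis3 the largest share under a peak among genes with over 10 runs (5 of 11). The Meis1 bar is for the stretch cut by Gm16140. With Gm16140 left out, Meis1 had 72 runs, 30 of them under a peak.

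Relatives within the TALE class give the setting of these counts. Of 9 other TALE genes (Tgif1, Tgif2, Mkx and the Irx genes), 8 had a peak and 56 peaks were theirs, from 0 in Tgif2, a repressor in TGF-β signalling, to 18 in Irx3, a patterning factor. A peak within 1 kb was present in 1 of them, Irx2, 0.113 kb downstream of the TSS, and 5 had 1 within 10 kb. Promoter peaks were thus seen in 3 of 8 Pbx, Meis and Pknox genes and 1 of 9 other TALE genes, a difference that was not tested. Among all genes named in the list, each with a peak, the share was 9.37%. Meis2 counts among the 3 by the RefSeq TSS of the list and not by the nearest GENCODE coding TSS.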

How the data were processed

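Isl1 ChIP-seq of pooled E8.25 to E9 embryos was represented by 1 deposited peak list. Per the labels and the methods, the authors mapped reads to mm9 with Bowtie2, removed duplicates (Picard 1.136), called peaks with MACS, removed blacklisted regions and assigned peaks to the closest RefSeq TSS. The deposited list holds positions and distances in bp; the methods describe taking peaks common to replicates (Bedtools intersect), but do not say whether this list is such an intersection. Depth is unknown. An inner header line was dropped.

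Sequence came from the NCBIM37 genome, the same assembly as mm9, and gene models from GENCODE vM1. Runs were the longest stretch of purines or of pyrimidines; the search was tested on simulated data. Peaks and runs overlapped from 1 bp. Shares have 95% Clopper-Pearson intervals (scipy 1.17.1). All peaks of the 8 members were named. Members, comparison lists and the run definition were chosen with earlier results of these data known. Alternatives covered distance, width, annotation, window and run length. Partner genes and 1 peak sequence are not reported here.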

Additional observations from a re-analysis of the deposited data

How the results depend on the processing

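No paired analysis was possible because there was 1 list and no test. The 31 peaks became 16 when only peaks wider than the median were kept, 16 within 100 kb of the TSS, 8 within 10 kb, 2 without a run, and 52 by closest GENCODE coding TSS with Gm16140 left out. The 7 genes with a peak became 3 within 1 kb, 4 with at least 2 peaks and 2 without a run. The median distance of 97.5 kb became 7.67 kb without Meis1, and the share with TAAT rose from 41.9 to 74.2% over whole peaks. The alternatives without Meis1 and without Gm16140 were added after the values were seen. Limits were the single list, the absence of peak heights and the unknown depth; a weak and a strong peak count alike, and no alternative peak threshold could be set other than by width. What repeats under a peak contribute to its call was not tested.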
